A study of Mus musculus with 24 samples.

Results

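Collagens are secreted or membrane-bound proteins built from triple helices of alpha chains, and each alpha chain has its own gene. The collagen chain genes followed here were all genes on the array whose symbol is Col, a type number, a and a chain number. There were 42 of them among 18193 genes with a measured symbol, and each was read by the probe set that was brightest on average over the arrays. They fell into 11 fibrillar chains, 9 network chains, 9 chains of the FACIT group (fibril-associated collagens with interrupted triple helices) and 13 others. After a filter on dim signals, 38 of the 42 chains were among the 13942 genes tested.

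The RNA came from jaws of mouse embryos at embryonic day 14.5 on a C57B6 background, and single-colour oligonucleotide arrays were hybridised with it. Mutants carried Wnt1-Cre and a floxed Alk5 gene (Tgfbr1, a type I receptor for TGF-beta); Wnt1-Cre acts in neural crest cells, from which most of the facial skeleton arises, and leaves other jaw cells without recombination. They came from a cross of Wnt1-Cre; Alk5 fl/+ with Alk5 fl/fl mice and were recognised by their cleft palate and skull vault defect, and the controls were littermates whose alleles the labels do not give further. The 8 groups, each with 3 arrays, were mutant and control distal mandible, proximal mandible, distal maxilla and proximal maxilla; the labels name the compartments as bone.

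Collagen fibrils give cartilage, bone and tendon their strength. Types I and II make most of the fibrils of bone and cartilage, types V and XI start fibrils and limit their width, and FACIT collagens coat the fibril surface. Network collagens form sheets such as basement membranes, and transmembrane and anchoring collagens tie cells to them. At this stage the mandible holds Meckel's cartilage with bone forming beside it, and TGF-beta is known to raise collagen synthesis in connective tissue cells.

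Levels are log2 signals, and they were compared between arrays for the same gene but not between genes, since a probe set's brightness depends on its sequence. Array medians lay between 7.03 and 7.12, and arrays of a group correlated at 0.985 to 0.997 over all 18193 genes. Whether a group's 3 arrays stand for separate embryos is not given by the labels, and p-values here reflect only the array-to-array spread, part of which may be technical. The targeted gene Tgfbr1 was higher in mutants by 0.26 ± 0.04 on average (SE, limma adjusted p = 0.000146), but its probe set may lie outside the deleted part and so checks nothing. Of the 24 arrays, 2 were closer to another group than to their own. The mutant distal maxilla array numbered 3 correlated at 0.973 with its own group and 0.976 with the mutant distal mandible, and the mutant proximal maxilla array numbered 3 at 0.969 and 0.981 with the mutant proximal mandible. Mutant arrays numbered 1 and 3 had high Xist (11.15 to 12.79) together with Y-linked transcripts (8.51 to 10.01), and no other array did. Each number kept its pattern of these transcripts in all 4 regions of its genotype. Control arrays numbered 1, for example, had Xist at 13.53 to 13.67, against 6.23 to 6.97 in those numbered 2 and 6.53 to 7.49 in those numbered 3. The 4 regions of a number may therefore share embryos.

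Collagen transcripts were lower in the mutants in most comparisons, most clearly in the mandible. In the distal mandible 17 of the 38 tested chains were lower and 2 higher in mutants at a limma adjusted p under 0.05, where 16.0% of all tested genes were called, 7.98% lower and 8.02% higher. The proximal mandible had 13 lower and 3 higher (background 19.9%, 10.4% lower and 9.56% higher), and the proximal maxilla 10 lower and 3 higher (background 10.5%, 4.79% lower and 5.75% higher). In the distal maxilla only Col8a2 passed, and it was lower (background 2.96%, 1.12% lower and 1.84% higher). The median log2 change of the 38 chains was -0.54 at the distal and -0.55 at the proximal end of the mandible, and -0.27 and -0.16 at the same ends of the maxilla, whereas the median of all tested genes lay between 0.03 and 0.04 in each. Levels of mutant and control arrays did not overlap for 27 chains in the distal mandible, against 42.4% of all tested genes, and for 24 at its proximal end (35.2%). In the maxilla they did not overlap for 5 chains distally (19.9%) and 19 proximally (28.8%).

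**Figure D1:**
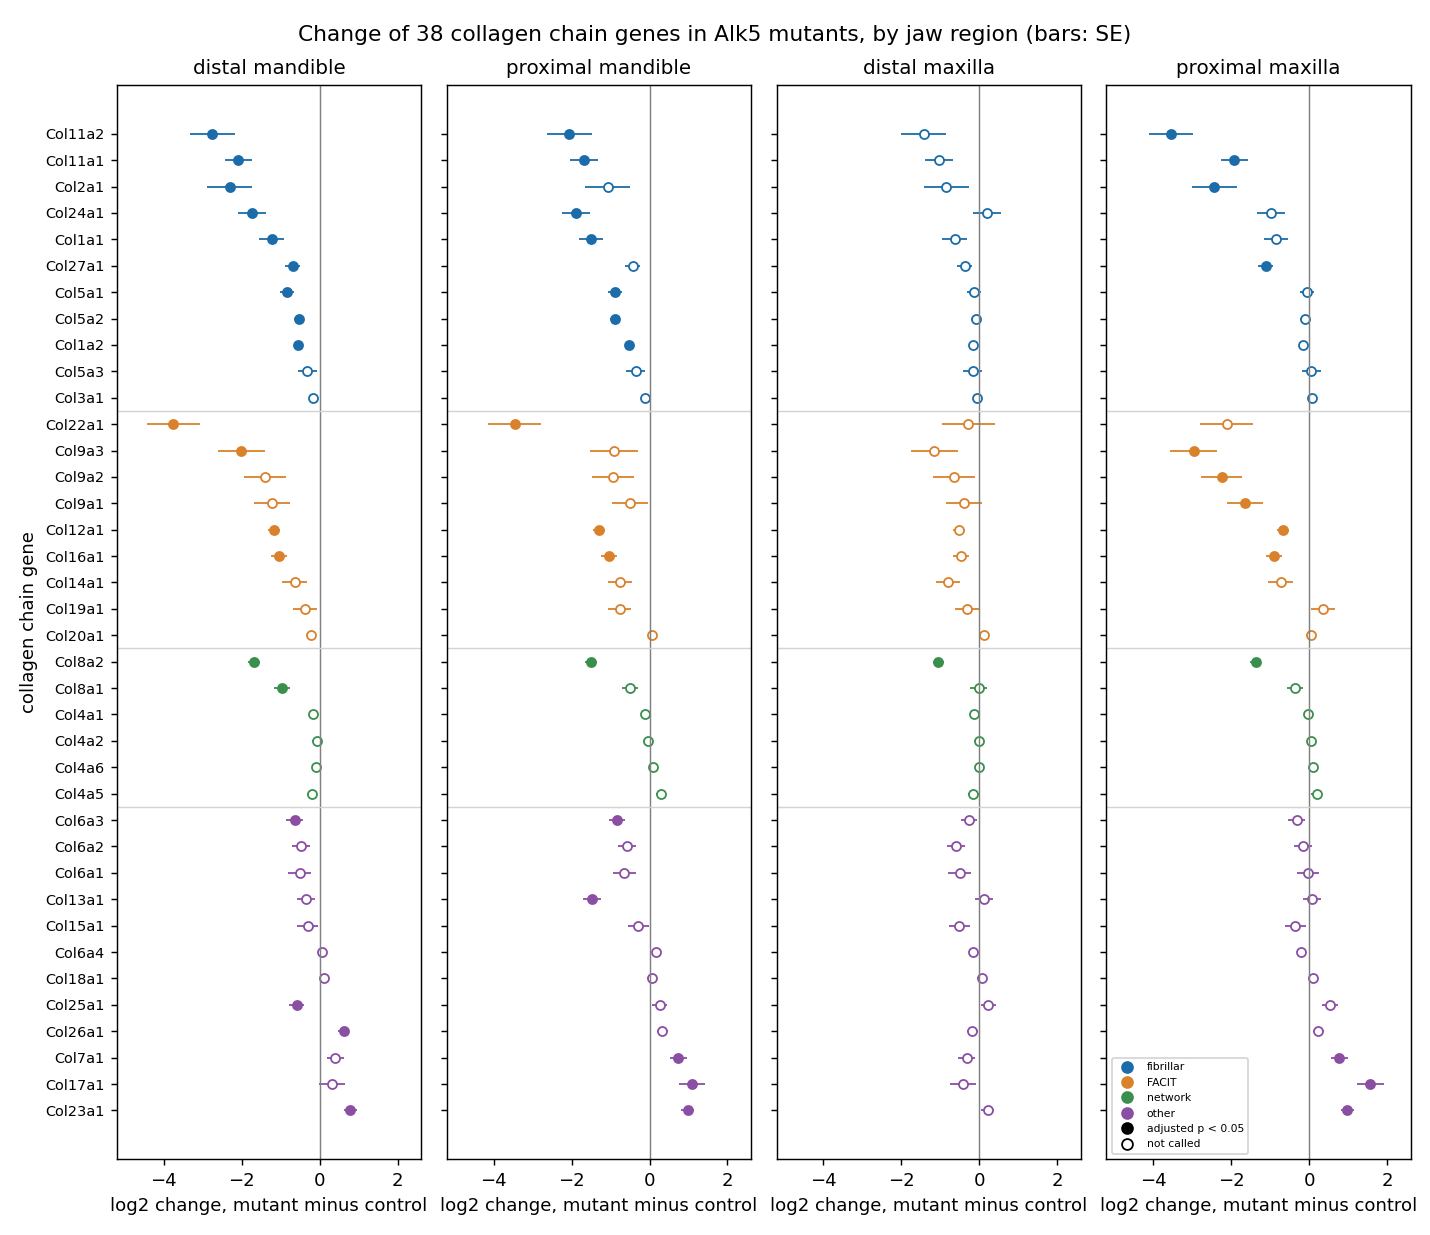
Log2 change (mutant minus control) of the 38 tested collagen chain genes in each of the 4 jaw regions, with bars for the SE, colours for the subgroup and filled points for a limma adjusted p under 0.05. The filled points lie mostly left of 0 in both mandible panels and in the proximal maxilla, and the distal maxilla has a filled point for Col8a2 alone.

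Averaged over the 4 regions, 23 chains were lower and 4 higher in mutants, against a background of 40.6% called, 15.3% lower and 25.2% higher. Of the fibrillar chains 9 of 11 fell, of the FACIT chains 7 of 9, of the tested network chains 2 of 6 and of the other chains 5 of 12, and the 4 chains that rose were all among the others. The median change was -0.65 for fibrillar, -0.91 for FACIT, -0.07 for network and 0.03 for the other chains. This average treats the 4 regions of a number as separate arrays, so the SE and adjusted p given for averages may be too small. When the regions of each genotype and number were first reduced to 1 mean, 15.2% of all tested genes were called. The log2 change was below 0 in all 4 regions for 22 chains, against 14.0% of all tested genes. Col8a2 was the only chain called in all 4 regions, lower in each, against 0.23% of all tested genes, and 0.617% were higher in each. Another 5 were called in 3 regions, namely Col11a1, Col11a2, Col12a1 and Col16a1, which were lower, and Col23a1, which was higher. The count in the distal maxilla moved with the arrays numbered 3: it was 6 without the pair of mutant maxilla arrays that stood apart, where 7.98% of all tested genes were called, and 15 without the arrays numbered 3 of both genotypes, with 4.08% of all genes. The same omissions gave 12 (all genes 5.62%) and 12 (4.89%) calls in the proximal maxilla and, over all regions, 31 (39.7%) and 29 (36.1%). Without the arrays numbered 3 of both genotypes the proximal mandible had 26 calls, with 20.4% of all genes.

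Promoter windows from RefSeq (build GRCm38.p6, 250 bases before to 50 after an annotated start) were held for 33 of the 42 chains in 36 windows. Those of Col11a2 and Col17a1 are shown because these chains stood for the cartilage and epithelial patterns described next. That of Col8a2 is shown because this chain was called in every region, unlike the other network chains. Col11a2 lies at chr17:34038888-34039187 on the + strand, Col8a2 at chr4:126286544-126286843 (+) and Col17a1 at chr19:47691993-47692292 (-). Capitals mark the motifs TATAAA, searched on the sense strand, and CCAAT (the CCAAT box), GGGCGG (the GC box), ACAATG (a Sox core) and CAGACA (with a Smad core), searched on both strands, where a reverse match reads as the reverse complement.
Col11a2: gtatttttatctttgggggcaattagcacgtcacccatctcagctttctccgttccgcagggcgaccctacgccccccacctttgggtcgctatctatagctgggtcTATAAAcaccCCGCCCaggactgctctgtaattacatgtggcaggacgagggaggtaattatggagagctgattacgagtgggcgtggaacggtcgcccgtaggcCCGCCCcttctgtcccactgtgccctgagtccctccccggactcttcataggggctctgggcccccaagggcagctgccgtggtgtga
Col8a2: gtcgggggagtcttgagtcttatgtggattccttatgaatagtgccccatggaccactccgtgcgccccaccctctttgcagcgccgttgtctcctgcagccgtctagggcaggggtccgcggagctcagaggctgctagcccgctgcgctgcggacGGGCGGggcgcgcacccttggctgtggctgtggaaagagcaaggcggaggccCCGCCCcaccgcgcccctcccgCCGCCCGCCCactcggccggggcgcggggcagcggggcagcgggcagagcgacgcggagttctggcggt
Col17a1: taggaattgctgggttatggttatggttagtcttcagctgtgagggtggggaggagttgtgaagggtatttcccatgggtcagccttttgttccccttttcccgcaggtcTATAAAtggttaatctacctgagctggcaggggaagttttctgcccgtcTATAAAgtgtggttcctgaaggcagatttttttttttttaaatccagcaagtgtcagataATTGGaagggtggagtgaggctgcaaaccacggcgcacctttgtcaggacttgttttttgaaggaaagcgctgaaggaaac
Positions are counted in bases from the annotated start, which is 0. The Col11a2 window held TATAAA at -143 and GGGCGG at -133 and -38. The Col8a2 window held GGGCGG at -93, -41, -19 and -15, the matches at -19 and -15 overlapping, and no TATAAA. In the Col17a1 window TATAAA lay at -140 and -91 and CCAAT at -31. Among all 32851 windows, 8.32% held TATAAA, 37.4% CCAAT and 35.7% GGGCGG, and of the 36 collagen windows 5, 13 and 22 did. The letters ACAATG stood in 12.6% of all windows and in none of the collagen windows. No window was held for Col2a1, Col9a3, Col1a1, Col12a1 or Col22a1, among others, so these counts do not cover them. CAGACA stood in 21.0% of all windows and in 8 collagen windows. These matches describe the letters in the windows and were not tested against the changes.

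The chains of cartilage fibrils were among the most changed. Col2a1 encodes the chain of type II collagen, the main fibril of cartilage, and averaged 3.17-fold lower in mutants over the 4 regions (log2 change -1.67 ± 0.29 (SE), adjusted p = 0.000167). Its distal mandible levels were 11.43, 11.61 and 10.57 in mutant arrays, against 13.57, 13.47 and 13.50 in control arrays. Those of the proximal mandible were 11.76, 11.97 and 13.01 in mutant arrays, against 13.37, 13.38 and 13.22 in control arrays. All mutant arrays lay below all control arrays in both ends of the mandible, and the proximal array numbered 3 was the closest to the controls. In the distal maxilla Col2a1 read 12.18, 12.33 and 11.43 in mutant arrays, against 13.38, 13.80 and 11.30 in control arrays, and in the proximal maxilla 12.07, 12.57 and 9.82 in mutant arrays, against 13.95, 13.86 and 13.95 in control arrays. The groups overlapped in the distal maxilla through the low control array numbered 3, and the mutant proximal maxilla array numbered 3 was the lowest of all. The change was called in the distal mandible, -2.31 (adjusted p = 0.0103), and the proximal maxilla, -2.43 (adjusted p = 0.0118), and not in the proximal mandible, -1.07 (adjusted p = 0.221), or the distal maxilla, -0.85 (adjusted p = 0.405). Without the low control array numbered 3 the distal maxilla value was -1.61 (adjusted p = 0.23), without control array 2 it was -0.36 (adjusted p = 0.738), and without the arrays numbered 3 of both genotypes -1.33 (adjusted p = 0.000817). Without the mutant array numbered 3 the proximal maxilla value was -1.60 (adjusted p = 0.0813), which ended that call. In all, 3 of 16 alternatives ended it, with limma adjusted p-values up to 0.113.

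Col11a2 encodes a chain of type XI collagen, which sits in the core of type II fibrils. It was 5.45-fold lower in mutants on average (log2 change -2.45 ± 0.28 (SE), adjusted p = 2.21e-06). Its levels were 8.84, 8.55 and 8.18 in mutant arrays, against 11.25, 11.20 and 11.39 in control arrays of the distal mandible. They were 9.09, 8.99 and 11.14 in mutant arrays, against 11.78, 11.78 and 11.83 in control arrays of the proximal mandible. No mutant array of the mandible reached a control array, and the mutant proximal array numbered 3 stood well above the other two. In the distal maxilla the levels were 9.33, 8.96 and 9.41 in mutant arrays, against 11.11, 11.59 and 9.30 in control arrays, and in the proximal maxilla 9.04, 9.28 and 7.06 in mutant arrays, against 12.09, 11.71 and 12.21 in control arrays. The distal maxilla groups overlapped through control array 3, while in the proximal maxilla every mutant array was below every control array. The change was -2.75 (adjusted p = 0.00282) at the distal and -2.06 (adjusted p = 0.0141) at the proximal end of the mandible, -3.54 (adjusted p = 0.000741) at the proximal end of the maxilla and, uncalled, -1.43 (adjusted p = 0.161) at its distal end. The proximal mandible call was lost without the mutant array numbered 1, at -1.73 (adjusted p = 0.0659), and without mutant array 2, at -1.68 (adjusted p = 0.0812).

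Col11a1, the partner chain of type XI, changed by -1.68 ± 0.17 (SE), adjusted p = 6.91e-07, on average. It read 10.82, 10.61 and 10.31 in mutant arrays, against 12.70, 12.60 and 12.71 in control arrays of the distal mandible and 10.99, 10.84 and 12.15 in mutant arrays, against 13.12, 13.03 and 12.88 in control arrays of the proximal mandible. In the maxilla it read 11.21, 10.86 and 10.96 in mutant arrays, against 12.49, 12.75 and 10.90 in control arrays at the distal end and 11.26, 11.35 and 10.73 in mutant arrays, against 13.06, 12.95 and 13.12 in control arrays at the proximal end. The genotypes overlapped in the distal maxilla alone, where control array 3, at 10.90, lay between the mutant arrays. Col27a1, a fibrillar chain found in cartilage, fell by less, -0.65 ± 0.09 (SE), adjusted p = 2.34e-05. Its levels were 10.28, 10.05 and 9.93 in mutant arrays, against 10.84, 10.76 and 10.75 in control arrays of the distal mandible and 10.30, 10.34 and 9.98 in mutant arrays, against 11.42, 11.25 and 11.29 in control arrays of the proximal maxilla, without overlap in either. At the other ends they were 10.32, 9.96 and 10.47 in mutant arrays, against 10.79, 10.66 and 10.58 in control arrays of the proximal mandible, again without overlap, and 10.61, 10.42 and 10.27 in mutant arrays, against 11.10, 11.16 and 10.16 in control arrays of the distal maxilla, where they overlapped. The distal mandible call for Col27a1 ended without mutant array 2, -0.68 (adjusted p = 0.0595), without mutant array 3, -0.62 (adjusted p = 0.0627), and without control array 1, -0.67 (adjusted p = 0.055).

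Type IX collagen, the FACIT collagen of cartilage, has 3 chains, and all 3 fell on average. The mean log2 change was -0.94 (adjusted p = 0.00283) for Col9a1, -1.31 (adjusted p = 0.000719) for Col9a2 and -1.76 (adjusted p = 0.000153) for Col9a3. Col9a3 had 10.91, 11.30 and 8.58 in mutant arrays, against 13.26, 13.21 and 13.22 in control arrays of the proximal maxilla. Its levels in the distal mandible were 10.60, 10.71 and 9.65 in mutant arrays, against 12.39, 12.24 and 12.36 in control arrays. Neither pair of groups overlapped, and the lowest mutant array was number 3 in each. In the proximal mandible Col9a3 read 10.74, 10.61 and 11.93 in mutant arrays, against 12.06, 12.09 and 11.88 in control arrays, and in the distal maxilla 11.11, 11.23 and 10.30 in mutant arrays, against 12.62, 13.10 and 10.38 in control arrays. These groups overlapped, through mutant array 3 in the mandible and control array 3 in the maxilla. By region, Col9a3 was called in the proximal maxilla, -2.97 (adjusted p = 0.00474), and the distal mandible, -2.01 (adjusted p = 0.0301). The distal mandible call ended when any 1 of its 6 arrays was left out, for example at -1.67 (adjusted p = 0.115) without mutant array 3. The proximal maxilla call held in each such omission and ended when its 6 arrays were fitted alone, -2.97 (adjusted p = 0.0747). Col9a1 and Col9a2 were called in the proximal maxilla alone, at -1.65 (adjusted p = 0.0274) and -2.25 (adjusted p = 0.0115), and without mutant array 3 they had -0.99 (adjusted p = 0.185) and -1.73 (adjusted p = 0.083). The Col9a1 call there also ended without any 1 control array, at -1.62 (adjusted p = 0.0736), -1.65 (adjusted p = 0.0581) and -1.67 (adjusted p = 0.0727). In all, 6 of 16 alternatives ended the Col9a1 call and 3 of 16 the Col9a2 call.

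Cartilage genes that encode no collagen moved with these chains. Of 13 tested chondrocyte markers 10 were lower in mutants and none higher, with a median log2 change of -1.96. Of all tested genes 15.3% were called lower and 25.2% higher on average. Their mean level per array ran over 7.12 to 9.73 in mutants and 8.50 to 11.29 in controls. Hapln1, the link protein of cartilage proteoglycan, changed by -1.92 (adjusted p = 0.000335) and Matn1, a matrilin of cartilage, by -3.05 (adjusted p = 0.000109). Sox9, the factor that starts the chondrocyte programme, had 0.16 (adjusted p = 0.622) and was not called. By region 9 markers were called lower in distal and 6 in proximal mandibles, and 2 in distal and 11 in proximal maxillae. The shares of all tested genes called lower were 7.98%, 10.4%, 1.12% and 4.79%, in the same order. Control array 3 of the distal maxilla had the lowest marker mean of the controls, 8.50, and mutant array 3 of the proximal mandible the highest of the mutants, 9.73, the same arrays that stood out for Col2a1. In bulk tissue fewer cells of a type and less RNA per cell cannot be told apart, and the share of these changes that follows cartilage content was not tested.

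Type I collagen, the main fibril of bone, tendon and skin, was lower in the mutant mandible. Col1a1, which encodes its alpha 1 chain, averaged 2.08-fold lower over the regions (log2 change -1.05 ± 0.16 (SE), adjusted p = 3.56e-05). Distal mandible levels of Col1a1 were 11.17, 11.43 and 11.51 in mutant arrays, against 12.62, 12.57 and 12.60 in control arrays. In the proximal mandible they were 11.35, 11.20 and 12.64 in mutant arrays, against 13.32, 13.03 and 13.35 in control arrays. Mutant and control arrays did not overlap in either, and mutant array 3 of the proximal mandible was again the highest mutant. In the distal maxilla the gene read 11.22, 10.94 and 12.12 in mutant arrays, against 11.99, 11.77 and 12.43 in control arrays, with overlap, and in the proximal maxilla 11.13, 11.12 and 11.83 in mutant arrays, against 12.01, 12.06 and 12.56 in control arrays, without. Col1a1 was called in the distal mandible, -1.23 (adjusted p = 0.0118), and proximal mandible, -1.50 (adjusted p = 0.00216), but not in the distal maxilla, -0.64 (adjusted p = 0.254), or proximal maxilla, -0.85 (adjusted p = 0.0899). Without the pair of mutant maxilla arrays that stood apart, its distal maxilla change was -0.98 (adjusted p = 0.0472).

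Col1a2, the alpha 2 chain of type I, changed by -0.55 (adjusted p = 0.0018) in the distal mandible and -0.52 (adjusted p = 0.00172) in the proximal mandible. Its probe set averaged 14.42 where the brightest value on any array was 14.86, so its differences may be compressed; the other probe sets of Col1a2 gave mean changes of -0.62 and -0.99, against -0.35 for this one. Col5a1 and Col5a2, chains of type V collagen that nucleates type I fibrils, changed by -0.88 (adjusted p = 0.00165) and -0.88 (adjusted p = 0.000125) in the proximal mandible and by -0.84 (adjusted p = 0.00364) and -0.53 (adjusted p = 0.0108) in the distal mandible. The distal mandible call for Col5a2 was lost without mutant array 2, -0.49 (adjusted p = 0.0516), and without control array 3, -0.49 (adjusted p = 0.0511). Col24a1, a fibrillar chain of forming bone, changed by -1.74 (adjusted p = 0.00252) in the distal and -1.89 (adjusted p = 0.000823) in the proximal mandible and had 0.20 (adjusted p = 0.776) in the distal maxilla. Col3a1, the fibril chain of soft connective tissue, was not called in any region, with changes from -0.17 in the distal mandible to 0.07 in the proximal maxilla, and averaged -0.07 (adjusted p = 0.125). Col5a3, the third chain of type V, passed the filter in 11 of 24 arrays and averaged -0.20 (adjusted p = 0.213). When the 4 regions of each genotype and number were first reduced to 1 mean, Col5a1 had an adjusted p of 0.0552 for the average, while Col1a1, Col1a2, Col5a2 and Col24a1 stayed called.

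All 6 osteoblast markers measured were lower in mutants on average, with a median log2 change of -1.98, and their mean level per array ran over 7.39 to 11.39 in mutants and 9.18 to 12.59 in controls. Mandibles had 6 markers called lower at the distal and 5 at the proximal end, and maxillae 0 and 3. Of all tested genes 15.3% were lower on average, and 7.98%, 10.4%, 1.12% and 4.79% in these regions, in the same order. Ibsp, a bone matrix sialoprotein, changed by -2.04 (adjusted p = 6.99e-05) and Sp7, a factor required for osteoblasts, by -0.84 (adjusted p = 9.82e-05). Mutant array 3 of the proximal mandible had the highest osteoblast mean of the mutants, 11.39, and mutant array 3 of the distal maxilla the next, 11.08. The part of bone cell content in the type I, V and XXIV changes was not tested.

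**Figure D2:**
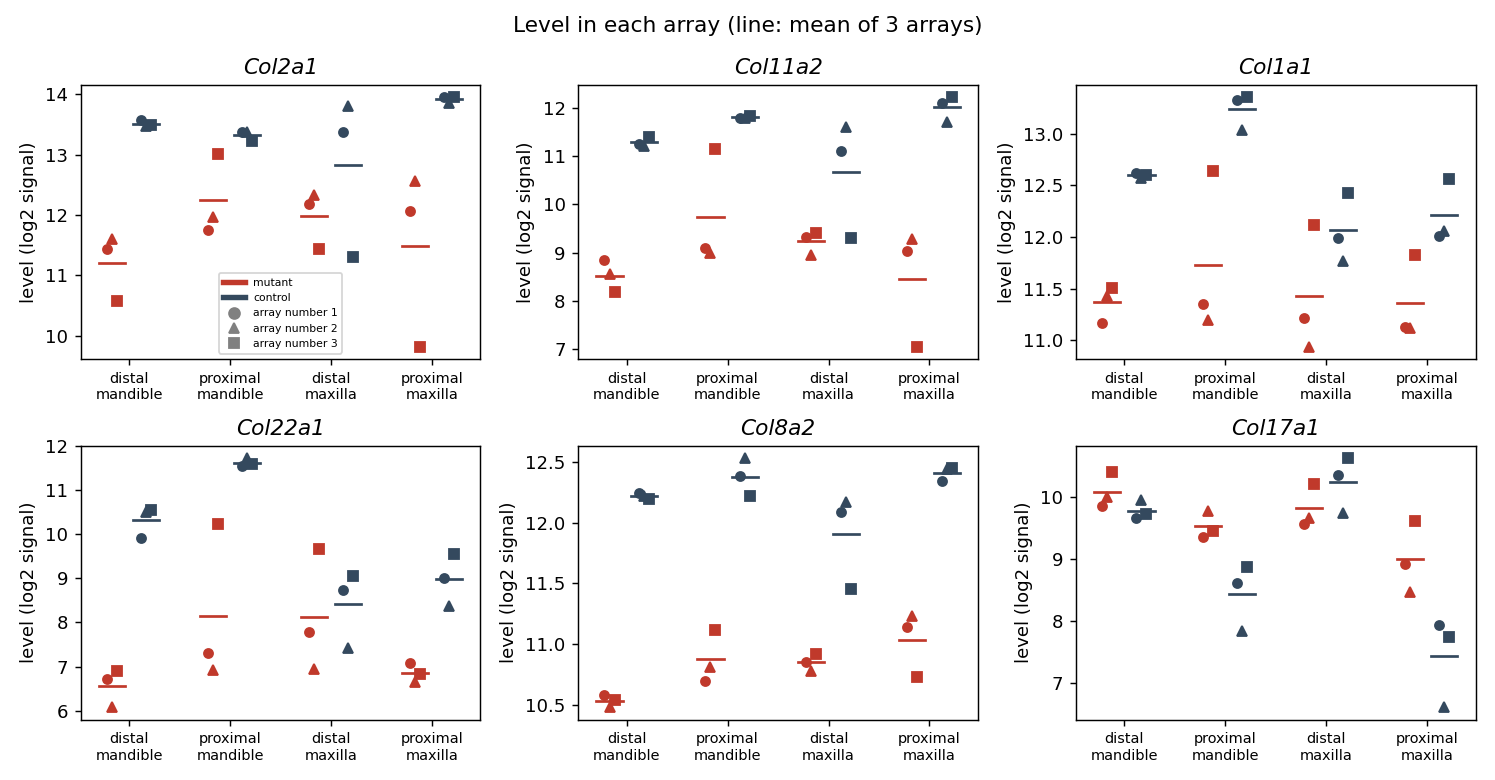
Log2 level of Col2a1, Col11a2, Col1a1, Col22a1, Col8a2 and Col17a1 in each of the 24 arrays, with mutant arrays left of control arrays in each region, symbols for the array number and a line for the mean of 3 arrays. Col8a2 has mutant arrays below control arrays in all 4 regions, whereas Col2a1, Col11a2, Col1a1 and Col22a1 overlap between genotypes in the distal maxilla, and Col17a1 has mutant arrays above control arrays at both proximal ends.

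Among the FACIT chains outside cartilage, Col22a1 had the widest changes. Type XXII collagen lies at tissue junctions, chiefly where muscle meets tendon. Col22a1 read 6.73, 6.08 and 6.90 in mutant arrays, against 9.92, 10.50 and 10.55 in control arrays of the distal mandible. Mutant array 2 there lay below the filter on dim signals (6.33 to 6.47) and the other mutant arrays just above it, so the difference may be compressed. Over the alternative fits it ran from -3.96 to -2.66. In the proximal mandible Col22a1 read 7.31, 6.93 and 10.23 in mutant arrays, against 11.55, 11.72 and 11.59 in control arrays. Mutant arrays stayed below control arrays at both ends, but mutant array 3 of the proximal mandible was far above the other two mutants. Distal maxilla levels were 7.78, 6.94 and 9.66 in mutant arrays, against 8.74, 7.43 and 9.06 in control arrays, with mutant array 3 the highest of all 6, and proximal maxilla levels were 7.09, 6.65 and 6.84 in mutant arrays, against 9.00, 8.37 and 9.56 in control arrays, without overlap. The change was -3.75 ± 0.68 (SE), adjusted p = 0.00111 in the distal mandible and -3.46 ± 0.68 (SE), adjusted p = 0.0012 in the proximal mandible. Neither maxilla end passed, with -0.28 (adjusted p = 0.835) at the distal and -2.12 (adjusted p = 0.0517) at the proximal end. All 3 of its probe sets had a mean change below 0, from -2.40 to -0.73.

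Col12a1 and Col14a1 encode FACIT collagens of tendon, ligament and the sheath of bone. Col12a1 read 10.96, 10.93 and 11.11 in mutant arrays, against 12.17, 12.08 and 12.27 in control arrays of the distal mandible and 11.39, 10.95 and 11.68 in mutant arrays, against 12.74, 12.57 and 12.61 in control arrays of the proximal mandible. It read 11.70, 11.24 and 11.86 in mutant arrays, against 12.13, 12.17 and 12.06 in control arrays of the distal maxilla and 11.79, 11.69 and 11.61 in mutant arrays, against 12.22, 12.26 and 12.60 in control arrays of the proximal maxilla. No mutant array reached a control array of its own region in any of the 4. The average change of Col12a1 was -0.91 ± 0.08 (SE), adjusted p = 5.99e-08, and regional calls were made everywhere but in the distal maxilla, -0.52 (adjusted p = 0.0681). In the proximal maxilla its call, -0.66 (adjusted p = 0.00888), ended without control array 3, at -0.54 (adjusted p = 0.0592). In all, 2 of 16 alternatives ended it, with limma adjusted p-values up to 0.0779. The mean of the Col12a1 probe sets changed by -0.50 (adjusted p = 4.51e-09) on average. Col14a1 was called only on average, -0.74 (adjusted p = 0.000907), with changes from -0.80 in the distal maxilla to -0.64 in the distal mandible.

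Col16a1, a FACIT chain of many connective tissues, averaged -0.86 ± 0.10 (SE), adjusted p = 3.37e-06. It read 9.76, 9.65 and 9.95 in mutant arrays, against 10.76, 10.83 and 10.87 in control arrays of the distal mandible and 9.79, 9.88 and 10.86 in mutant arrays, against 11.16, 11.26 and 11.24 in control arrays of the proximal mandible. It read 10.22, 10.35 and 10.50 in mutant arrays, against 11.14, 11.17 and 11.46 in control arrays of the proximal maxilla and 10.24, 10.04 and 10.76 in mutant arrays, against 10.88, 10.97 and 10.61 in control arrays of the distal maxilla. The genotypes overlapped in the distal maxilla alone, where mutant array 3, at 10.76, exceeded control array 3. The proximal maxilla call for Col16a1, -0.90 (adjusted p = 0.00929), ended without control array 3, at -0.80 (adjusted p = 0.0529). Col19a1, a chain of basement membrane zones, and Col20a1, described first in chick, were not called in any region or on average, and their mean changes were -0.27 (adjusted p = 0.161) and 0.01 (adjusted p = 0.948). Col19a1 lay above the filter in 12 of 24 arrays.

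Tendon markers fell with these chains: 5 of 6 were lower on average, among them Tnmd (tenomodulin) with -1.43 (adjusted p = 7.23e-07) and Fmod (fibromodulin) with -2.02 (adjusted p = 2.87e-08). Their mean level was 7.99 to 8.56 in mutant and 9.88 to 10.06 in control arrays of the proximal mandible, and 7.59 to 8.39 in mutant and 7.91 to 8.42 in control arrays of the distal maxilla. Of 10 muscle markers 8 were lower in distal and 2 in proximal mandibles, and none at either end of the maxilla. The shares of all tested genes called lower were 7.98% in distal and 10.4% in proximal mandibles. They were 1.12% in distal and 4.79% in proximal maxillae, and 15.3% on average. The muscle mean was 6.94 to 8.66 in mutant and 10.14 to 11.13 in control arrays of the distal mandible, and 9.16 to 10.46 in mutant and 10.48 to 11.61 in control arrays of its proximal end. For the maxilla it was 6.50 to 7.94 in mutant and 6.63 to 7.43 in control arrays distally, and 8.47 to 10.44 in mutant and 7.98 to 10.05 in control arrays proximally. Whether Col22a1 and Col12a1 followed tendon or muscle content was not tested.

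Of all 38 chains Col8a2 had the lowest adjusted p on average (-1.40 ± 0.07 (SE), adjusted p = 4.47e-10). Over the alternative fits this limma adjusted p was at most 0.000771. Type VIII collagen is a short-chain network collagen known from the cornea and vessel walls. Its levels were 10.58, 10.48 and 10.54 in mutant arrays, against 12.24, 12.22 and 12.19 in control arrays of the distal mandible and 10.70, 10.81 and 11.12 in mutant arrays, against 12.38, 12.53 and 12.22 in control arrays of the proximal mandible. In the maxilla they were 10.85, 10.78 and 10.92 in mutant arrays, against 12.09, 12.17 and 11.45 in control arrays of the distal end and 11.14, 11.23 and 10.73 in mutant arrays, against 12.34, 12.44 and 12.45 in control arrays of the proximal end. Every mutant array lay below every control array, also across regions. In the mandible the change was -1.68 (adjusted p = 1.98e-06) distally and -1.50 (adjusted p = 4.59e-06) proximally, and in the maxilla -1.05 (adjusted p = 0.00148) and -1.38 (adjusted p = 2.38e-05). The distal maxilla call was lost when the 6 arrays of that region were fitted alone, -1.05 (adjusted p = 0.111).

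Col8a1, the other chain of type VIII, read 10.56, 10.25 and 10.59 in mutant arrays, against 11.40, 11.43 and 11.46 in control arrays of the distal mandible, without overlap. It read 10.00, 10.02 and 9.62 in mutant arrays, against 10.46, 10.47 and 10.24 in control arrays of the proximal mandible, also without overlap. Maxilla levels were 11.66, 11.55 and 11.18 in mutant arrays, against 11.65, 11.69 and 11.11 in control arrays of the distal end and 11.32, 11.55 and 10.53 in mutant arrays, against 11.62, 11.22 and 11.63 in control arrays of the proximal end, with overlap at both. The change passed in the distal mandible, -0.96 (adjusted p = 0.00383), and on average, -0.46 (adjusted p = 0.00156). The test of the difference between jaws gave -0.55 (adjusted p = 0.127) for Col8a1 and -0.38 (adjusted p = 0.139) for Col8a2, and neither passed.

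The type IV chains, which build the network of basement membranes, had no call in any region or on average. Col4a1 averaged -0.11 (adjusted p = 0.0624), Col4a2 -0.02 (adjusted p = 0.835), Col4a5 0.04 (adjusted p = 0.715) and Col4a6 0.02 (adjusted p = 0.784). Col4a1 read 11.83, 11.97 and 12.08 in mutant arrays, against 12.07, 12.09 and 12.22 in control arrays of the distal mandible, where mutant array 3 overlapped the controls. The regional changes of Col4a1 and Col4a2 ran from -0.17 to 0.06. Endothelial markers, from cells rich in basement membrane, averaged 9.20 to 9.81 in mutant and 8.98 to 9.81 in control arrays over all regions. In the proximal mandible they averaged 9.29 to 9.53 in mutant and 9.65 to 9.75 in control arrays. Of these markers 3 of 8 were lower on average, against 15.3% of all tested genes. By region 3 were called lower in distal and 4 in proximal mandibles, and 0 in distal and 0 in proximal maxillae. The shares of all tested genes called lower were 7.98%, 10.4%, 1.12% and 4.79%, in the same order. Col4a3 and Col4a4, chains of kidney and other specialised membranes, and Col10a1, the chain of hypertrophic cartilage, lay below the filter in all 24 arrays and were not tested. Col10a1 levels ran from 5.03 to 5.71, Col4a3 from 5.09 to 5.74 and Col4a4 from 5.08 to 5.76.

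Col4a1 and Col4a2 stand head to head on chromosome 8, and their windows in RefSeq (GRCm38.p6) are shown because they overlap. The annotated starts used are 21 bases apart, and the windows, chr8:11312777-11313076 on the - strand and chr8:11312555-11312854 on the + strand, share 78 bases. The RefSeq span of Col4a1 reaches beyond the start used, to 11312889. Capitals again mark the motifs.
Col4a1: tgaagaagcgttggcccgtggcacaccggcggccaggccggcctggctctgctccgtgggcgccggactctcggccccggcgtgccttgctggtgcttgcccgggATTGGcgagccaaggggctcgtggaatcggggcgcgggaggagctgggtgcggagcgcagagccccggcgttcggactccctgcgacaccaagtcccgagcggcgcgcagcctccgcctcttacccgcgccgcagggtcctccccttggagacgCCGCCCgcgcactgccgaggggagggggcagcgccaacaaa
Col4a2: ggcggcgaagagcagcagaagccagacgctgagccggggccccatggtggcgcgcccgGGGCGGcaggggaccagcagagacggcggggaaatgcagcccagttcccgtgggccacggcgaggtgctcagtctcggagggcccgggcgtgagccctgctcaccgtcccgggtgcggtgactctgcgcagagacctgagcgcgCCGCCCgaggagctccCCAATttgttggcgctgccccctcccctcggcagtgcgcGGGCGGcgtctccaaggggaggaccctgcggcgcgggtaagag
CCAAT lay at -145 in the Col4a1 window and at -32 in the Col4a2 window, and the GGGCGG matches at 9 in the Col4a1 and 7 in the Col4a2 window are the same bases, in the shared stretch, read from opposite strands. The pair changed by -0.11 and -0.02 on average. Col4a5 and Col4a6, whose annotated starts are 1343 bases apart, changed by 0.04 and 0.02.

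Type VI collagen forms beaded filaments around cells, and its main chains were modestly lower. Col6a3 had -0.52 ± 0.11 (SE), adjusted p = 0.000737 on average, Col6a2 -0.46 (adjusted p = 0.00396) and Col6a1 -0.42 (adjusted p = 0.0239). Col6a3 read 12.27, 12.44 and 12.44 in mutant arrays, against 12.94, 13.07 and 13.06 in control arrays of the distal mandible and 12.19, 12.21 and 12.70 in mutant arrays, against 13.15, 13.17 and 13.28 in control arrays of the proximal mandible, without overlap. It read 12.17, 11.83 and 13.01 in mutant arrays, against 12.68, 12.42 and 12.70 in control arrays of the distal maxilla and 12.10, 12.00 and 12.58 in mutant arrays, against 12.48, 12.36 and 12.82 in control arrays of the proximal maxilla, with overlap at both ends through mutant array 3. Col6a2 read 12.50, 12.41 and 12.47 in mutant arrays, against 12.84, 12.94 and 13.01 in control arrays of the distal mandible and 12.28, 12.22 and 12.57 in mutant arrays, against 12.86, 12.95 and 13.02 in control arrays of the proximal mandible. It read 11.81, 11.51 and 12.71 in mutant arrays, against 12.54, 12.49 and 12.84 in control arrays of the distal maxilla and 11.87, 11.90 and 12.76 in mutant arrays, against 12.09, 12.41 and 12.50 in control arrays of the proximal maxilla. Mutant array 3 was the highest mutant of both genes in the maxilla, and Col6a2 overlapped there and not in the mandible. Col6a3 was called in the distal mandible, -0.64 (adjusted p = 0.0454), and the proximal mandible, -0.83 (adjusted p = 0.00838). The distal call ended whichever of its 6 arrays was left out, with adjusted p-values from 0.0782 to 0.128. With 1 mean per genotype and number the averages had adjusted p-values of 0.0567 for Col6a3, 0.0972 for Col6a2 and 0.189 for Col6a1. The average for Col6a1 was also lost without any 1 number except the mutant arrays numbered 3, for example -0.28 (adjusted p = 0.157) without mutant arrays 2. Col6a4 was near the filter, above it in 3 arrays, and averaged -0.03 (adjusted p = 0.669), and Col6a5 lay below the filter in all arrays, at 4.13 to 4.53.

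Col23a1, which encodes a transmembrane collagen, rose in more regions than any other chain. It averaged 0.74 ± 0.08 (SE), adjusted p = 1.94e-06. Its levels were 10.00, 9.66 and 9.73 in mutant arrays, against 9.18, 8.83 and 9.01 in control arrays of the distal mandible and 10.29, 9.91 and 10.12 in mutant arrays, against 9.15, 9.23 and 8.99 in control arrays of the proximal mandible. They were 9.89, 9.33 and 10.26 in mutant arrays, against 9.71, 9.65 and 9.46 in control arrays of the distal maxilla and 10.15, 10.24 and 10.44 in mutant arrays, against 9.45, 9.34 and 9.12 in control arrays of the proximal maxilla. The genotypes overlapped in the distal maxilla alone, and the other 3 regions each had an adjusted p under 0.05, 0.00374 for the distal mandible and 0.000414 and 0.00149 for the proximal mandible and maxilla.

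Col17a1, the transmembrane collagen of hemidesmosomes in basal epithelial cells, and Col7a1, the chain of anchoring fibrils beneath epithelia, were higher at the proximal ends. Col17a1 read 9.36, 9.77 and 9.46 in mutant arrays, against 8.61, 7.84 and 8.87 in control arrays of the proximal mandible and 8.92, 8.47 and 9.61 in mutant arrays, against 7.94, 6.61 and 7.74 in control arrays of the proximal maxilla. All mutant arrays exceeded all control arrays there. It read 9.86, 10.01 and 10.40 in mutant arrays, against 9.67, 9.95 and 9.73 in control arrays of the distal mandible and 9.57, 9.67 and 10.22 in mutant arrays, against 10.36, 9.74 and 10.63 in control arrays of the distal maxilla, with overlap at both. The change was 1.09 (adjusted p = 0.0264) in the proximal mandible and 1.57 (adjusted p = 0.00602) in the proximal maxilla, against 0.31 (adjusted p = 0.599) and -0.43 (adjusted p = 0.472) at the distal ends of mandible and maxilla. The proximal mandible call ended without mutant array 2, 0.97 (adjusted p = 0.0999), and without control array 2, 0.79 (adjusted p = 0.158). The proximal maxilla call of Col17a1 ended without the arrays numbered 3 of both genotypes, 1.42 (adjusted p = 0.0562), and when the 6 arrays of that region were fitted alone, 1.57 (adjusted p = 0.111). Col7a1 changed by 0.74 (adjusted p = 0.0213) in the proximal mandible and 0.77 (adjusted p = 0.0307) in the proximal maxilla. Its proximal maxilla call was lost without mutant array 3, 0.47 (adjusted p = 0.208), or any 1 control array, and its proximal mandible call without mutant array 2, mutant array 3 or control array 2, at adjusted p-values of 0.0955, 0.0523 and 0.11. In all, 8 of 16 alternatives ended the proximal maxilla call of Col7a1. On average Col17a1 had 0.64 (adjusted p = 0.00522) and Col7a1 0.40 (adjusted p = 0.00722), and with 1 mean per genotype and number their adjusted p-values were 0.0873 and 0.0939.

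Epithelial markers also differed between genotypes. Of 8 markers 3 were higher in the mutant proximal mandible and 4 in the mutant proximal maxilla, with 1 higher in the distal mandible and none in the distal maxilla. The shares of all tested genes called higher were 9.56%, 5.75%, 8.02% and 1.84%, in the same order. Their mean level was 10.82 to 11.22 in mutant and 9.73 to 10.40 in control arrays of the proximal mandible, and 10.95 to 11.15 in mutant and 9.82 to 10.70 in control arrays of the proximal maxilla. At the distal ends it was 11.37 to 11.87 in mutant and 11.30 to 11.59 in control mandibles, and 11.44 to 11.78 in mutant and 11.76 to 12.37 in control maxillae. Krt14, a keratin of basal epithelial cells, changed by 0.74 (adjusted p = 0.00769) on average. The part of epithelial content in the Col17a1 and Col7a1 differences was not tested.

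**Figure D3:**
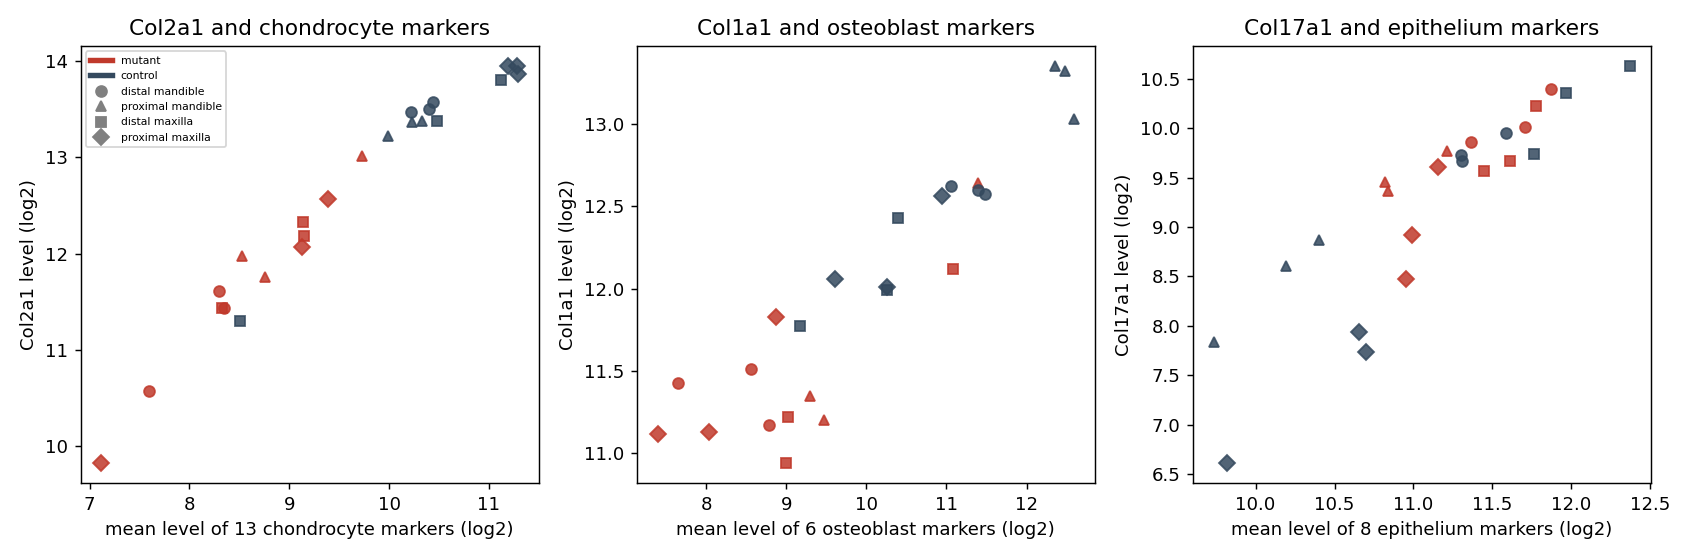
Log2 level of Col2a1, Col1a1 and Col17a1 in each of the 24 arrays against the mean level of 13 chondrocyte, 6 osteoblast and 8 epithelium markers in the same array, with colours for genotype and symbols for region. In each panel arrays with higher marker means tend to have more collagen transcript, most loosely for Col1a1 among mutant arrays, and both axes come from the same array.

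The remaining chains changed in few places. Col13a1, a transmembrane collagen of the neuromuscular junction and other contacts, was lower in the proximal mandible, -1.47 (adjusted p = 0.000167), and averaged -0.41 (adjusted p = 0.0082); without mutant arrays 2 the average was -0.35 (adjusted p = 0.0579). Col25a1, another transmembrane chain, was lower in the distal mandible, -0.59 (adjusted p = 0.0454), a call lost when any 1 array except mutant array 1 was omitted, with adjusted p-values from 0.0691 to 0.179. Col26a1 was higher in the distal mandible, 0.61 (adjusted p = 0.00503), and on average, 0.25 (adjusted p = 0.00711), and this average had an adjusted p of 0.168 with 1 mean per genotype and number. The distal mandible call of Col26a1 was lost without the arrays numbered 3 of both genotypes, 0.55 (adjusted p = 0.0899), and the mean of its probe sets changed by 0.41 (adjusted p = 0.00664) there. Col15a1, a chain of the basement membrane zone near the filter (above it in 14 arrays), averaged -0.37 (adjusted p = 0.0375), and had an adjusted p of 0.293 with 1 mean per genotype and number. That average was also lost without the mutant arrays numbered 1 or 2 or the control arrays numbered 1 or 3, at 0.175, 0.19, 0.309 and 0.153. The Col26a1 average was lost without mutant arrays 2, control arrays 1 or control arrays 3, at 0.0725, 0.0795 and 0.0637, and the Col7a1 average without control arrays 2, at 0.0586. Col18a1, the precursor of endostatin, was not called, with 0.09 (adjusted p = 0.273).

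A separate contrast asked whether the mutant change differed between the jaws, taking the mean of the distal and proximal ends of each. It was more negative in the mandible for 7 chains and more positive for none at a limma adjusted p under 0.05, where 6.76% of all tested genes were called, 4.31% as lower and 2.45% as higher. The 7 were Col1a2, Col5a1, Col5a2 and Col24a1 of the fibrillar chains, Col12a1 and Col22a1 of the FACIT chains, and the transmembrane Col13a1. Col22a1 changed by -3.61 in the mandible and -1.20 in the maxilla, a difference of -2.41 ± 0.68 (SE), adjusted p = 0.038. For Col24a1 the change was -1.82 in the mandible and -0.39 in the maxilla, a difference of -1.42 ± 0.36 (SE), adjusted p = 0.0207. Col13a1 had -0.91 in the mandible and 0.10 in the maxilla, differing by -1.01 ± 0.23 (SE), adjusted p = 0.0123. These are the widest differences among the 7, and the maxilla value of Col13a1 was slightly above 0.

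Of the type V chains, Col5a1 changed by -0.86 in the mandible and -0.11 in the maxilla (difference -0.75 ± 0.18 (SE), adjusted p = 0.0158) and Col5a2 by -0.70 in the mandible and -0.10 in the maxilla (difference -0.60 ± 0.13 (SE), adjusted p = 0.0102). Col5a1 levels of the proximal mandible were 11.59, 11.68 and 11.98 in mutant arrays, against 12.53, 12.65 and 12.71 in control arrays, and those of the proximal maxilla 11.42, 11.72 and 12.12 in mutant arrays, against 11.65, 11.83 and 11.96 in control arrays. Col5a2 levels of the proximal mandible were 12.81, 12.91 and 13.28 in mutant arrays, against 13.85, 13.94 and 13.86 in control arrays, and those of the proximal maxilla 12.79, 12.83 and 13.10 in mutant arrays, against 12.92, 12.91 and 13.23 in control arrays. Both genes separated the genotypes in the proximal mandible and overlapped in the proximal maxilla. At the distal ends Col5a1 read 11.40, 11.52 and 11.69 in mutant arrays, against 12.22, 12.45 and 12.46 in control arrays of the mandible and 11.30, 11.04 and 11.92 in mutant arrays, against 11.49, 11.51 and 11.71 in control arrays of the maxilla. Distal Col5a2 levels were 13.06, 12.97 and 13.09 in mutant arrays, against 13.49, 13.57 and 13.65 in control arrays of the mandible and 12.80, 12.64 and 13.23 in mutant arrays, against 13.06, 12.80 and 13.08 in control arrays of the maxilla. Again the groups were apart in the mandible and overlapped in the maxilla. Col13a1 read 8.62, 9.05 and 9.62 in mutant arrays, against 10.54, 10.74 and 10.41 in control arrays of the proximal mandible and 9.55, 9.23 and 9.24 in mutant arrays, against 9.48, 9.84 and 9.76 in control arrays of the distal mandible. In the maxilla its levels were 8.51, 8.43 and 9.22 in mutant arrays, against 8.96, 8.34 and 8.52 in control arrays of the distal and 8.91, 8.73 and 8.44 in mutant arrays, against 8.75, 8.38 and 8.70 in control arrays of the proximal end. Only the proximal mandible separated the genotypes for Col13a1. For Col12a1 the difference was -0.65 (adjusted p = 0.0138) and for Col1a2 -0.37 (adjusted p = 0.0417).

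None of these 7 differences held when each numbered set of arrays was left out in turn. Without the control arrays numbered 1, the adjusted p was 0.0535 for Col5a2, 0.0729 for Col5a1, 0.102 for Col12a1, 0.0747 for Col24a1, 0.113 for Col22a1 and 0.139 for Col1a2, and Col13a1 alone stayed called. Without the control arrays numbered 2 the values were 0.0774 for Col5a2, 0.0843 for Col5a1, 0.104 for Col13a1, 0.134 for Col24a1, 0.193 for Col22a1 and 0.205 for Col1a2. Without the control arrays numbered 3 they were 0.0727 for Col5a1, 0.0562 for Col12a1, 0.072 for Col13a1, 0.0654 for Col24a1, 0.113 for Col22a1 and 0.101 for Col1a2. Without the mutant arrays numbered 1 Col12a1, Col1a2 and Col22a1 had 0.0867, 0.091 and 0.139, and without those numbered 2 Col1a2 and Col22a1 had 0.0798 and 0.0693. The direction was the same in every such fit. Without the pair of mutant maxilla arrays that stood apart, which resembled mandible arrays, 5 differences were called, 4 of the 7 and that of Col8a1, -0.77 (adjusted p = 0.0072), while those of Col1a2, Col22a1 and Col24a1 were -0.27 (adjusted p = 0.0938), -2.03 (adjusted p = 0.0742) and -1.17 (adjusted p = 0.0507). Markers differed between jaws in the same direction for 6 of 10 muscle, 3 of 6 tendon and 2 of 6 osteoblast genes, for 3 of 7 macrophage and 3 of 8 endothelial genes, and for none of 13 chondrocyte, 6 neuron and 4 Schwann and glia genes, while 2 of 8 epithelial genes differed the other way, and their part in the collagen differences was not tested. Of all tested genes 4.31% differed in this direction and 2.45% the other way.

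**Figure D4:**
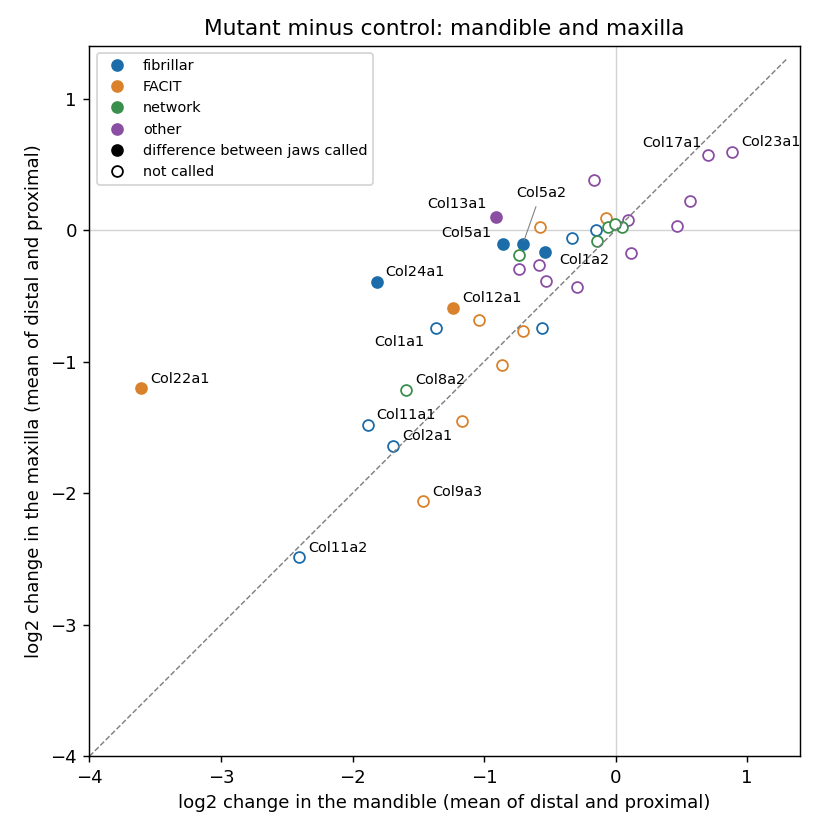
Log2 change (mutant minus control) of each of the 38 chains in the mandible (horizontal axis) and in the maxilla (vertical axis), each the mean of the distal and proximal ends, with a dashed line where both are equal. The 7 filled points, whose jaw difference was called, lie above the line, with Col22a1 and Col24a1 farthest from it, while Col2a1 and Col11a2 lie close to the line.

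The mutant change was also compared between the ends of the jaws, as distal minus proximal. No chain was called by limma, against 0.115% of all tested genes, 0.043% with the change higher distally and 0.0717% lower. An unadjusted limma p under 0.05 was found for 6 of the 38 chains and for 1173 of the 13942 tested genes. The lowest adjusted p was that of Col17a1, -1.39 (adjusted p = 0.135), followed by Col7a1, -0.72 (adjusted p = 0.267). With each genotype and number reduced to 1 value, 5 chains and 2.67% of all tested genes were called, the chains being Col17a1 and Col7a1 (adjusted p = 0.0134 each), Col22a1 (0.0167), Col13a1 (0.0203) and Col23a1 (0.0495). With the number as a random block Col17a1 alone was called, at 0.0322, with 0.481% of all genes.

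Control jaws alone showed how the chains are laid out in the control littermates, whose alleles are not given. Averaged over both ends, 13 chains were higher and 3 lower in the control mandible than in the control maxilla, with 34.7% of all tested genes called, 16.7% higher and 18.1% lower. The 13 included all of Col1a1, Col1a2, Col3a1, Col5a1, Col5a2 and Col24a1, the fibrillar chains outside cartilage with the exception of Col5a3, and Col6a1, Col6a2 and Col6a3. The cartilage chains Col2a1, at 0.04 (adjusted p = 0.948), and Col11a2, at 0.20 (adjusted p = 0.74), did not pass. Chondrocyte markers were lower in the mandible for 2 of 13, osteoblast markers higher for 5 of 6, tendon markers higher for 5 of 6 and muscle markers for 10 of 10. Endothelial markers were higher for 5 of 8 and macrophage markers for 2 of 7, epithelial markers lower for 4 and higher for 1 of 8, neuron markers lower for 5 of 6 and Schwann and glia markers lower for 4 of 4. The muscle mean was 10.14 to 11.61 in control mandibles and 6.63 to 10.05 in control maxillae, and the part of tissue makeup was not tested.

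Col13a1 had the lowest adjusted p, with 9.48, 9.84 and 9.76 in distal and 10.54, 10.74 and 10.41 in proximal mandibles, against 8.96, 8.34 and 8.52 in distal and 8.75, 8.38 and 8.70 in proximal maxillae. Every mandible array was above every maxilla array, and the difference was 1.52 ± 0.16 (SE), adjusted p = 1.01e-06. Col22a1 read 9.92, 10.50 and 10.55 in distal and 11.55, 11.72 and 11.59 in proximal mandibles, against 8.74, 7.43 and 9.06 in distal and 9.00, 8.37 and 9.56 in proximal maxillae. It differed by 2.28 ± 0.48 (SE), adjusted p = 0.000958, again without overlap. Col24a1 read 8.02, 8.31 and 8.39 in distal and 9.81, 10.02 and 9.75 in proximal mandibles, against 7.51, 7.00 and 7.44 in distal and 7.54, 7.05 and 8.02 in proximal maxillae, with a difference of 1.62 ± 0.25 (SE), adjusted p = 5.03e-05 and with distal mandible array 1 level with proximal maxilla array 3 at 8.02. Col5a2, at 0.73 (adjusted p = 8.24e-06), and Col6a1, at 0.80 (adjusted p = 0.00438), did not overlap between the jaws. Col6a1 read 12.08, 12.20 and 12.27 in distal and 12.18, 12.19 and 12.42 in proximal mandibles, against 11.48, 11.27 and 11.71 in distal and 11.25, 11.35 and 11.49 in proximal maxillae. The Col6a1 call was lost without the control arrays numbered 2, 0.76 (adjusted p = 0.0568).

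Lower in the control mandible were Col14a1, -0.99 ± 0.22 (SE), adjusted p = 0.00151, Col8a1, -0.58 ± 0.15 (SE), adjusted p = 0.00421, and Col23a1, -0.39 ± 0.12 (SE), adjusted p = 0.0157. Col14a1 read 9.82, 9.64 and 10.15 in distal and 10.65, 10.09 and 10.88 in proximal mandibles, against 11.37, 11.22 and 10.79 in distal and 11.17, 11.19 and 11.41 in proximal maxillae. Col8a1 read 11.40, 11.43 and 11.46 in distal and 10.46, 10.47 and 10.24 in proximal mandibles, against 11.65, 11.69 and 11.11 in distal and 11.62, 11.22 and 11.63 in proximal maxillae. The distal and proximal mandible lay far apart for Col8a1, and distal mandible values overlapped the maxilla. Leaving out the control arrays numbered 1 ended the calls of Col8a1, -0.52 (adjusted p = 0.071), and Col23a1, -0.38 (adjusted p = 0.0955). With the same arrays left out Col1a1 had 0.68 (adjusted p = 0.124), Col6a3 0.57 (adjusted p = 0.0555), Col25a1 0.35 (adjusted p = 0.17) and Col6a2 0.42 (adjusted p = 0.183). Without the control arrays numbered 2 Col1a2 had 0.23 (adjusted p = 0.103), Col23a1 -0.35 (adjusted p = 0.121), Col6a3 0.44 (adjusted p = 0.123), Col1a1 0.72 (adjusted p = 0.0889), Col25a1 0.46 (adjusted p = 0.0875) and Col6a2 0.44 (adjusted p = 0.171). Without those numbered 3 Col19a1, 0.85 (adjusted p = 0.00412) with all arrays, had 0.66 (adjusted p = 0.0971), Col25a1 0.43 (adjusted p = 0.0871) and Col6a2 0.52 (adjusted p = 0.0973).

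Between the ends of the control mandible 5 chains differed, against 5.45% of all tested genes, 2.91% higher and 2.54% lower distally. Col8a1 was higher distally, with 11.40, 11.43 and 11.46 in distal and 10.46, 10.47 and 10.24 in proximal arrays, a difference of 1.04 ± 0.21 (SE), adjusted p = 0.00478. Col7a1 had 8.89, 9.07 and 8.98 in distal and 8.08, 7.67 and 8.06 in proximal arrays (1.05 ± 0.22 (SE), adjusted p = 0.00694), and Col17a1 9.67, 9.95 and 9.73 in distal and 8.61, 7.84 and 8.87 in proximal arrays (1.34 ± 0.34 (SE), adjusted p = 0.0211). Lower at the distal end were Col24a1, with 8.02, 8.31 and 8.39 in distal and 9.81, 10.02 and 9.75 in proximal arrays (-1.62 ± 0.36 (SE), adjusted p = 0.00896), and Col13a1, with -0.87 (adjusted p = 0.0292). The ends did not overlap for 23 of the 38 tested chains, these 5 among them, and the share of all tested genes was not computed. With the replicate number as a block, which paired the ends of the control mandible, 8 chains and 9.57% of all tested genes were called. The Col24a1 call was lost without distal array 1, -1.51 (adjusted p = 0.0505), that of Col13a1 without any 1 of the 6 arrays, for example -0.76 (adjusted p = 0.151) without distal array 1, and that of Col17a1 without any distal array or proximal array 2, at 0.0588, 0.0951, 0.055 and 0.132.

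In the control maxilla 3 chains differed between the ends, against 10.9% of all tested genes, 4.9% higher and 5.99% lower distally. Col17a1 was 7.04-fold higher distally, with 10.36, 9.74 and 10.63 in distal and 7.94, 6.61 and 7.74 in proximal arrays (2.82 ± 0.34 (SE), adjusted p = 1.5e-05), and Col7a1 had 9.26, 8.78 and 9.48 in distal and 7.77, 7.37 and 7.77 in proximal arrays (1.54 ± 0.22 (SE), adjusted p = 0.0001). Col8a2 was lower distally, -0.51 (adjusted p = 0.0319), and without distal array 3 it had -0.28 (adjusted p = 0.241). Leaving out proximal array 1, 2 or 3 also ended that call, at 0.0645, 0.0875 and 0.0816. Without distal array 2 the number of called chains was 6, and 12.8% of all tested genes were called. Epithelial markers were higher at the distal end for 6 of 8 in the mandible and 6 of 8 in the maxilla, with mean levels of 11.76 to 12.37 in distal and 9.82 to 10.70 in proximal control maxillae, and their part in the Col17a1 and Col7a1 differences was not tested.

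Genes that make, secrete, cross-link and bind collagen were read beside the chains. Of 21 tested genes for modification, folding and secretion 19 fell and 1 rose on average, with a median log2 change of -0.39, where 40.6% of all tested genes were called. P4ha1, a prolyl 4-hydroxylase subunit that stabilises the triple helix, changed by -0.53 (adjusted p = 4.23e-06), Plod2, a lysyl hydroxylase, by -0.79 (adjusted p = 8.23e-06), and P3h1, a prolyl 3-hydroxylase, by -0.75 (adjusted p = 8.88e-06). Serpinh1, the collagen chaperone HSP47, had -0.23 (adjusted p = 0.000283), and Creb3l1, a transcription factor that acts on collagen genes and secretion, -0.85 (adjusted p = 0.000118). P3h2, another prolyl 3-hydroxylase, was the gene that rose, 0.15 (adjusted p = 0.0378). The mean level of the list was 10.73 to 10.76 in mutant and 11.19 to 11.31 in control arrays of the distal mandible, so that the genotypes were apart, and 10.69 to 11.01 in mutant and 10.61 to 11.05 in control arrays of the distal maxilla, where they overlapped. By region 16 of the 21 were lower in distal and 16 in proximal mandibles, and 0 in distal and 7 in proximal maxillae. Among all tested genes 7.98%, 10.4%, 1.12% and 4.79% were lower there, in the same order.

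Of 9 genes for processing and cross-linking 7 fell and 1 rose, with a median of -0.74. Among all tested genes 15.3% fell and 25.2% rose on average. Lox, the lysyl oxidase that starts cross-links, changed by -0.77 (adjusted p = 1.72e-05), its relative Loxl4 by -1.11 (adjusted p = 4.82e-07) and Pcolce2, an enhancer of C-terminal trimming, by -1.25 (adjusted p = 7.86e-06). Bmp1, the C-proteinase itself, rose by 0.16 (adjusted p = 0.0291). Of 7 receptors 4 fell and 1 rose, with a median of -0.20. Itga10, the integrin subunit of chondrocytes that binds type II collagen, had -1.66 (adjusted p = 2.31e-06), Itga1, which binds types I and IV, -0.71 (adjusted p = 1.39e-05), and Ddr2, a receptor kinase for fibrillar collagen, 0.16 (adjusted p = 0.00947). In the distal maxilla 0 genes of the cross-linking list and 0 receptors were called, against 2.96% of all tested genes.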

How the data were processed

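The deposited values are log2 signals per probe set that the authors made by RMA, per the submitters' processing notes, with no version given; the base was read from their range of 3.29 to 14.86. RMA corrects background, quantile-normalizes and summarises probes, which compresses differences near either end of the scale. Each of the 24 arrays was assigned to its group by its title. Of 45101 probe sets, 34945 had exactly 1 gene symbol in the platform annotation, 932 had several, 9160 none and 64 were controls; 34741 matched RefSeq GRCm38.p6 by gene identifier and 0 symbols changed. Each gene was read by its brightest probe set on average, and 27 collagen genes had more than 1 among their 82 probe sets.

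Genes were tested when above the 40th percentile of the array (6.33 to 6.47) in at least 3 arrays. limma 3.58.1 in R 4.3.3 fitted 1 mean per group over all 24 arrays with a mean-variance trend in eBayes, and 10 contrasts, two-sided, each adjusted by Benjamini-Hochberg over the 13942 tested genes and called at 0.05. Mean changes weight the 4 regions equally. The steps were tested on simulated data. The arrays give no read depth, and their number, 3 a group, limits the precision. The collagen genes, their subgroups, the marker lists (chondrocyte, osteoblast, tendon, skeletal muscle, endothelium, epithelium, Schwann and glia, neuron, macrophage) and the collagen enzyme and receptor lists were chosen with earlier results of these data known. Values in every array are given for Col2a1, Col11a2, Col22a1 and Col1a1, for up to 4 called chains of each subgroup by the moderated statistic of the mean effect, and for up to 2 of each subgroup called in each other contrast. For chains chosen only through a control contrast (Col6a1, Col7a1, Col14a1 and Col24a1) the full listing covers the control arrays alone. Col9a3 and the chains at the filter followed from these or were named to account for every member. Alternatives were another quantile normalization, array weights, no filter or a 60th percentile filter, the mean of all probe sets, the replicate number as a block, only the arrays compared and leaving out arrays. Leaving out the pair of mutant maxilla arrays numbered 3, and all arrays numbered 3, was chosen after seeing the data.

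Array numbers were checked as pairs by correlating deviations from the group means. The 3 correlations were 0.16, 0.13 and 0.36 for the mean over regions, 0.55, 0.26 and 0.12 for the control jaws and 0.68, 0.33 and 0.50 for the ends of the control mandible, all over 0.1. They were not all over 0.1 for the genotypes within a region or the ends of the control maxilla.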

Additional observations from a re-analysis of the deposited data

Results flagged for a closer look

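For 7 chains the mutant change differed between the jaws by the contrast of the difference itself, mandible minus maxilla, with the limma adjusted p in parentheses. The difference was -0.65 for Col12a1 (0.0138), -1.01 for Col13a1 (0.0123), -0.37 for Col1a2 (0.0417), -2.41 for Col22a1 (0.038), -1.42 for Col24a1 (0.0207), -0.75 for Col5a1 (0.0158) and -0.60 for Col5a2 (0.0102). All are negative, so that the change was more negative in the mandible than in the maxilla, and 4 of the 7 chains are fibrillar. Each was lost in at least 1 fit that left out a numbered set of arrays, as described above. In control jaws all 7 except Col12a1, which had 0.17 (adjusted p = 0.241), were higher in the mandible than in the maxilla; the control arrays enter both contrasts.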

How the results depend on the processing

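For single chains that were called, 1580 values under alternatives were computed for 107 results: 1433 kept direction and call, 147 kept direction and lost the call and 0 changed sign. Calls kept under every alternative numbered 13 of 19 in the distal mandible, 13 of 16 in the proximal mandible, 0 of 1 in the distal maxilla, 5 of 13 in the proximal maxilla, 18 of 27 on average, 0 of 7 for the jaw difference, 7 of 16 for the control jaws, 2 of 5 for the ends of the control mandible and 2 of 3 for those of the control maxilla. Leaving out 1 numbered array or set gave these counts of called chains, each with the share of all tested genes called in the same fits. The distal mandible had 14 to 17 (8.92 to 13.1%) and the proximal mandible 13 to 17 (13.8 to 19.7%). The distal maxilla had 1 to 5 (0.337 to 5.38%) and the proximal maxilla 9 to 13 (4.41 to 10.3%). The average had 23 to 31 (32.6 to 39.6%) and the jaw difference 1 to 9 (2.49 to 6.65%). The end difference had 0 (0 to 0.653%) and the control jaws 9 to 14 (23.6 to 26.1%). The ends of the control mandible had 2 to 4 (2.6 to 3.79%) and those of the control maxilla 2 to 6 (5.01 to 12.8%). With the replicate block the distal maxilla had 3 called chains (share of all tested genes called 6.85%), the end difference 5, the ends of the control mandible 8 and the average 19 (15.2%), where the losses are given above. With the block as a random effect the end difference had 1, the ends of the control maxilla 5 (16.4%) and the average 24 (27.2%), without Col13a1 (0.0715), Col15a1 (0.066) and Col6a1 (0.0704); neither block ended a call in the other comparisons. Array weights gave 11 in the distal maxilla (8.56% of all genes) and 13 for the ends of the control mandible (18.3%), and the mean of all probe sets 2 in the distal maxilla (3.08%). Fitting only the arrays compared, which leaves 4 residual degrees of freedom, gave 0 in the distal maxilla (0.165% of all genes), 8 in the proximal maxilla (2.3%) and 17 for the ends of the control mandible (13.4%). Without the pair of mutant maxilla arrays numbered 3 the distal maxilla had 6, and without all arrays numbered 3 the distal maxilla had 15, the proximal mandible 26 and the jaw difference 11 (4.8% of all genes). The cause of these moves was not tested beyond the omissions themselves. The filter and a further quantile normalization left every count within 1.5 times. Col15a1, Col19a1, Col5a3, Col6a4 and, in some mutant groups, Col22a1 and Col24a1 sit near background, where RMA values understate differences.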

Other observations

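Neighbouring collagen genes did not always share a change. Col3a1 and Col5a2 lie next to each other on chromosome 1, and their mean changes were -0.07 (adjusted p = 0.125) and -0.40 (adjusted p = 9.79e-05). Col9a1, a cartilage chain, had -0.94 (adjusted p = 0.00283), while its neighbour Col19a1 had -0.27 (adjusted p = 0.161). Col6a1 and Col6a2, also adjacent, had -0.42 and -0.46. These pairs were chosen for their position, and whether neighbours change alike was not tested.

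Of 22 collagen genes with more than 1 probe set above the filter level, 19 had the same sign of mean change in all of them, and Col20a1, Col25a1 and Col4a1 did not. The probe sets of Col9a3 gave -1.76 and -1.75, those of Col11a1 -1.68 and -1.61, those of Col1a1 -1.46 and -1.05, and those of Col5a2 -0.40 and -0.15.

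Among the remaining marker lists, 5 of 7 macrophage markers were lower in mutants on average, with a median of -0.60, 3 of 4 Schwann cell and glia markers were higher, with 0.21, and none of 6 neuron markers was called, with 0.16. Among all tested genes 15.3% were lower and 25.2% higher on average.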
